A study of Homo sapiens with 12 samples.

Results

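The ATP-binding cassette (ABC) transporters were examined in Calu-6 cells, a human lung cancer cell line, after knockdown of *LAPTM4B*, which encodes a transmembrane protein of late endosomes and lysosomes. The family was taken as every gene whose symbol is ABC followed by a subfamily letter from A to G and a number, on array features that carry exactly 1 gene symbol. This gave 43 of the 18417 genes represented by such features. The 43 members comprised 12 of subfamily ABCA, 8 of ABCB, 11 of ABCC, 3 of ABCD, 1 of ABCE, 3 of ABCF and 5 of ABCG, and they were covered by 47 features. Where a member had several features, the one with the highest mean over all arrays stood for it.

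In all, 4 groups of cells were profiled with 3 biological replicates, each an independent transfection, for 12 Affymetrix Human Gene 1.0 ST arrays in all. Cells received a pool of siRNAs against *LAPTM4B* (siLAPTM4B) and were switched to medium with 0% FBS, or received scrambled siRNA (siControl) and the same medium, and both transfections were also kept in medium with 10% FBS. RNA was taken 48 h after the medium change, which was 72 h after transfection. All groups are transfected cells of a single line, so untransfected cells and other lung cells are not represented in these comparisons. Values are log2 signals made by the authors with robust multi-array average (RMA), and every fold change is a difference of mean log2 signals with its standard error (SE). Negative values mean lower in siLAPTM4B cells for knockdown and lower in 0% FBS for serum withdrawal.

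ABC proteins share a nucleotide-binding fold that binds and hydrolyses ATP, and in most members this drives a substrate across a membrane. Subfamily A and several G members move sterols and phospholipids, and *ABCA1* and *ABCG1* export cellular cholesterol to apolipoproteins and lipoprotein particles under control of the oxysterol-sensing LXR receptors with their partner RXR. Many C members and *ABCG2* export drugs and conjugated metabolites, and are known from tumour cells for drug resistance. The B members are spread over the plasma membrane, mitochondria and lysosomes, the D members lie mainly in peroxisomes, and the E and F members are soluble proteins that act on ribosomes.

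The 3 members whose promoters are shown are those the results below turn on: *ABCA1*, whose response to knockdown differed between media, *ABCG2*, which had the largest change of the 43 members with knockdown in 10% FBS, and *ABCC2*, which was lower in siLAPTM4B cells in both media. Each line gives the 250 bases before the RefSeq transcription start on GRCh38.p14, read 5′ to 3′ on the strand of the gene, for *ABCA1* at chr9:104928156-104928405 (minus strand), for *ABCG2* at chr4:88158860-88159109 (minus strand, 1 of its 5 annotated starts) and for *ABCC2* at chr10:99782390-99782639 (plus strand). Capitals mark matches to the 4 motifs searched.
ABCA1: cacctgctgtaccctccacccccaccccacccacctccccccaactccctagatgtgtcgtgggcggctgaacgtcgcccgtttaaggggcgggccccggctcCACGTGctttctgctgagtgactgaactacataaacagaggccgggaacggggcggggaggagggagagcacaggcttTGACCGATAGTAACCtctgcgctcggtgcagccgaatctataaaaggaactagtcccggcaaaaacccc
ABCG2: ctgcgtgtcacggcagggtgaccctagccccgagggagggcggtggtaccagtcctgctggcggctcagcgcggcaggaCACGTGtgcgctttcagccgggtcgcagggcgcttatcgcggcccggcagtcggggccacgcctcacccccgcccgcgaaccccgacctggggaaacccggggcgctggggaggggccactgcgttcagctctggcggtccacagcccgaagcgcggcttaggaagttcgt
ABCC2: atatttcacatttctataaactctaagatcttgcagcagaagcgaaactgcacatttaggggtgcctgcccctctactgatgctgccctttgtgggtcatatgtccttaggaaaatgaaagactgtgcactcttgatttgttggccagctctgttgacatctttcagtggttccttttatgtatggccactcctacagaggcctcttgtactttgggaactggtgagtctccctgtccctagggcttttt
The motifs, searched on both strands without overlap between the matches shown, were the E-box CACGTG, the core of the antioxidant response element TGACNNNGC, an LXR-type direct repeat, made of 2 copies of GGTNA on a strand with 5 bases between them, and the forkhead box GTAAACA. The *ABCA1* stretch held an E-box at -147 to -142 and, on the opposite strand, the direct repeat at -69 to -55. The *ABCG2* stretch held an E-box at -171 to -166, and the *ABCC2* stretch held no match. Among all 35116 promoter windows of 300 bases, 7.26% held the E-box, 13.3% the antioxidant core, 0.626% the direct repeat and 3.42% the forkhead box. For the 34 members that could be matched, with 51 windows, the counts were 9, 12, 1 and 3 windows. The members with the antioxidant core include *ABCG2*, where the match lies outside the stretch shown. The match in *ABCA1* was the single direct repeat among the member windows. These are matches of letters, and binding was not measured.

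The siRNA target was lower in all siLAPTM4B arrays. *LAPTM4B* averaged 10.49 ± 0.045 in siLAPTM4B cells and 11.91 ± 0.037 in siControl cells without serum (SD, n = 3 each), which is a change of -1.42 (SE 0.05, 0.373-fold). In 10% FBS it averaged 10.01 ± 0.024 in siLAPTM4B cells and 11.77 ± 0.024 in siControl cells (-1.75, SE 0.04, 0.297-fold). The knockdown was smaller without serum, with a difference between the media of 0.33 (SE 0.06, adjusted p = 0.035). Array medians lay between 7.71 and 7.76, and correlations between arrays were 0.9976 to 0.9988 within groups and 0.9892 to 0.9980 between groups. Of the epithelial markers 5 of 6 lay at or above the median feature, with *CDH1* below it, while 0 of 5 lung lineage markers, 0 of 5 endothelial markers, 1 of 5 leukocyte markers (*LYZ*) and 3 of 6 fibroblast markers (*COL1A1*, *LUM* and *PDGFRB*) did. The lung lineage markers *NKX2-1*, *NAPSA*, *SFTPB*, *SFTPC* and *SCGB1A1* all lay between the lower quartile and the median of the features, which does not settle whether they were present. The summed log2 signal of the fibroblast list moved with both factors: it was 42.8 to 43.2 in siLAPTM4B and 43.7 to 43.9 in siControl cells without serum, and 45.9 to 46.4 in siLAPTM4B and 46.8 to 47.2 in siControl cells in 10% FBS. *LUM* and *PDGFRB* carried nearly all of this: *LUM* was 6.51 to 6.85 in siLAPTM4B and 7.10 to 7.18 in siControl cells without serum, against 8.39 to 8.61 in siLAPTM4B and 8.96 to 9.14 in siControl cells in 10% FBS. The other 4 genes of the list moved little, with *DCN* below the lower quartile. The summed signal of the epithelial list was 58.3 to 58.4 in siLAPTM4B and 58.2 to 58.5 in siControl cells without serum, and 59.2 to 59.5 in siLAPTM4B and 58.6 to 58.9 in siControl cells in 10% FBS. Within it *KRT7* was lower without serum (9.11 to 9.54, against 11.00 to 11.17 in 10% FBS) and *EPCAM* higher (9.33 to 9.89, against 8.20 to 9.05). The part of these genes in the results below was not tested. In RNA from whole cultures, fewer cells of a kind and less RNA per cell cannot be told apart.

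Signal set what could be measured. Of the 43 members, 20 had a mean below the median of all features (8 ABCA, 4 ABCB, 4 ABCC and 4 ABCG members), and 11 of these lay below the lower quartile. All ABCD, ABCE and ABCF members lay above the median. No member was removed for low signal, and *ABCC13* is annotated as a transcribed pseudogene.

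A few members were lower after *LAPTM4B* knockdown in each medium. Without serum 3 of 43 members passed an adjusted p under 0.05 and were called, all lower in siLAPTM4B cells: *ABCC2* and *ABCC3*, exporters of conjugated anions, and the cholesterol exporter *ABCA1*. Of all features tested 2.33% were called in this comparison (0.591% higher and 1.74% lower). In 10% FBS 5 of 43 members were called, again all lower: *ABCG2*, *ABCA6*, *ABCA9*, *ABCC2* and *ABCC4*. Of these, *ABCG2*, *ABCA6* and *ABCA9* had a mean signal below the median of all features. Of all features 4.08% were called in 10% FBS (1.99% higher and 2.09% lower). *ABCC2* was the member called in both media, 1 of the 3 and 1 of the 5. The median log2 fold change of the 43 members was -0.003 without serum, against 0.006 over all genes, and 0.010 in 10% FBS, against 0.005. The members had the same sign in the 2 media in 33 of 43 cases, with r = 0.622 across members. Members share arrays within a medium and are no replicates, while the 2 comparisons share no array. The same agreement over all features was not computed.

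At an unadjusted p under 0.01, the threshold the methods name, 8 of 43 members passed without serum (6.63% of all features) and 9 of 43 in 10% FBS (8.09%). Members that passed this threshold without being called were, without serum, *ABCG2* at -0.31, *ABCC4* and *ABCB6* at -0.19 each, *ABCA6* at -0.17 and *ABCB10* at 0.19 (adjusted p = 0.069 to 0.12). In 10% FBS they were *ABCC3* at -0.25, *ABCB6* at -0.18, *ABCA1* at 0.17 and *ABCB4* at 0.16 (adjusted p = 0.053 to 0.1). With 3 arrays against 3 the exact permutation test cannot go below a two-sided p of 0.1, which every called member reached, since none of them had overlapping groups.

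**Figure D1:**
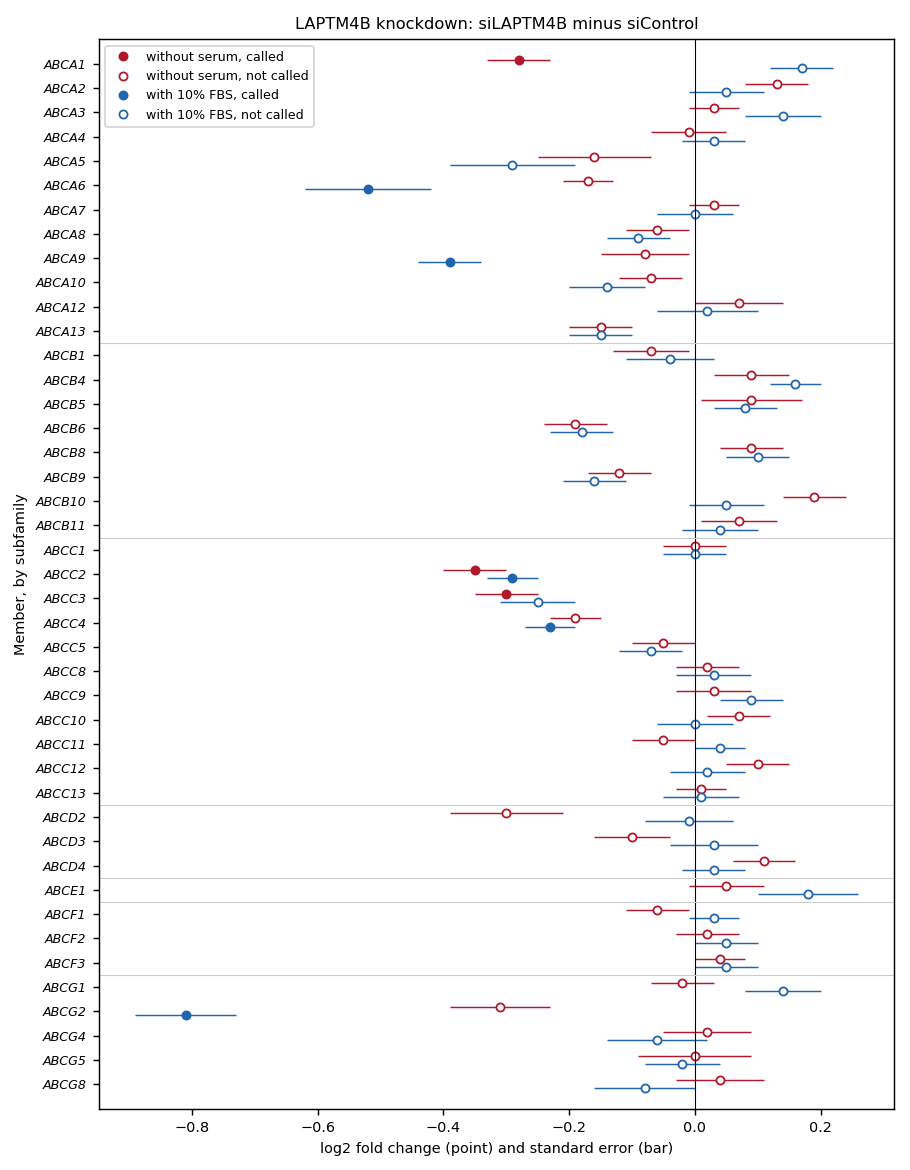
Log2 fold change of siLAPTM4B against siControl for the 43 ABC members, by subfamily, without serum (red) and with 10% FBS (blue). Points are fitted log2 fold changes, bars are standard errors and filled points passed an adjusted p under 0.05. The 3 called points without serum and the 5 called points with 10% FBS all lie left of 0, and *ABCG2* with 10% FBS lies farthest left at -0.81.

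All knockdown calls except those of *ABCG2* and *ABCA9* in 10% FBS were lost when some single array was left out. With each array left out in turn, the log2 fold change without serum stayed at -0.30 to -0.25 for *ABCA1*, -0.38 to -0.30 for *ABCC2* and -0.33 to -0.26 for *ABCC3*. Without serum, none of the 3 calls was made after leaving out siControl replicate 1, 2 or 3 or siLAPTM4B replicate 2, and 1 was made (*ABCC2*) without siLAPTM4B replicate 1. In 10% FBS the count was 2 without siLAPTM4B replicate 3 and 3 without siLAPTM4B replicate 1 or 2 or siControl replicate 2 or 3, and *ABCG2* and *ABCA9* were called in each of these fits. There the log2 fold change stayed at -0.89 to -0.73 for *ABCG2*, -0.59 to -0.39 for *ABCA6*, -0.42 to -0.34 for *ABCA9*, -0.30 to -0.27 for *ABCC2* and -0.24 to -0.21 for *ABCC4*. Higher calls were made under some alternatives: *ABCA1* in 10% FBS with dim features left out and with all 12 arrays in the fit (adjusted p = 0.046 and 0.035), and *ABCB10* without serum with dim features left out and with trended and robust variances (0.033 and 0.027).

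Serum withdrawal moved a larger share of the family. In siLAPTM4B cells 16 of 43 members were called, 9 higher and 7 lower in 0% FBS, where 20.7% of all features were called (9.74% higher and 11.0% lower). In siControl cells 20 of 43 were called, 8 higher and 12 lower, where 26.0% of all features were called (13.2% higher and 12.9% lower). The sterol exporters *ABCG1* and *ABCA1* rose most among the members in both transfections, and the multidrug exporter *ABCG2* fell most. Members called higher in both were *ABCA1*, *ABCA2*, *ABCA3*, *ABCA7*, *ABCB4*, *ABCB6* and *ABCG1*, 7 of the 9 in siLAPTM4B cells and 7 of the 8 in siControl cells. Members called lower in both were *ABCA6*, *ABCA9*, *ABCC2*, *ABCC3*, *ABCC4* and *ABCG2*, 6 of the 7 in siLAPTM4B cells and 6 of the 12 in siControl cells.

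Signs of the serum effect matched in 38 of 43 members, with r = 0.962 across members between the 2 transfections, which share no array. Sign agreement, r and shared calls were not compared with those over all features, so they are not read as particular to the family. The median log2 fold change of the members was -0.056 in siLAPTM4B cells, against -0.006 over all genes, and -0.047 in siControl cells, against -0.015. Among members at or above the median signal, 12 of 23 were called in siLAPTM4B cells (28.6% of features at that signal) and 12 of 23 in siControl cells (35.7%). Each knockdown comparison shares arrays with each serum comparison, so their values for a member are given side by side and not correlated.

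**Figure D2:**
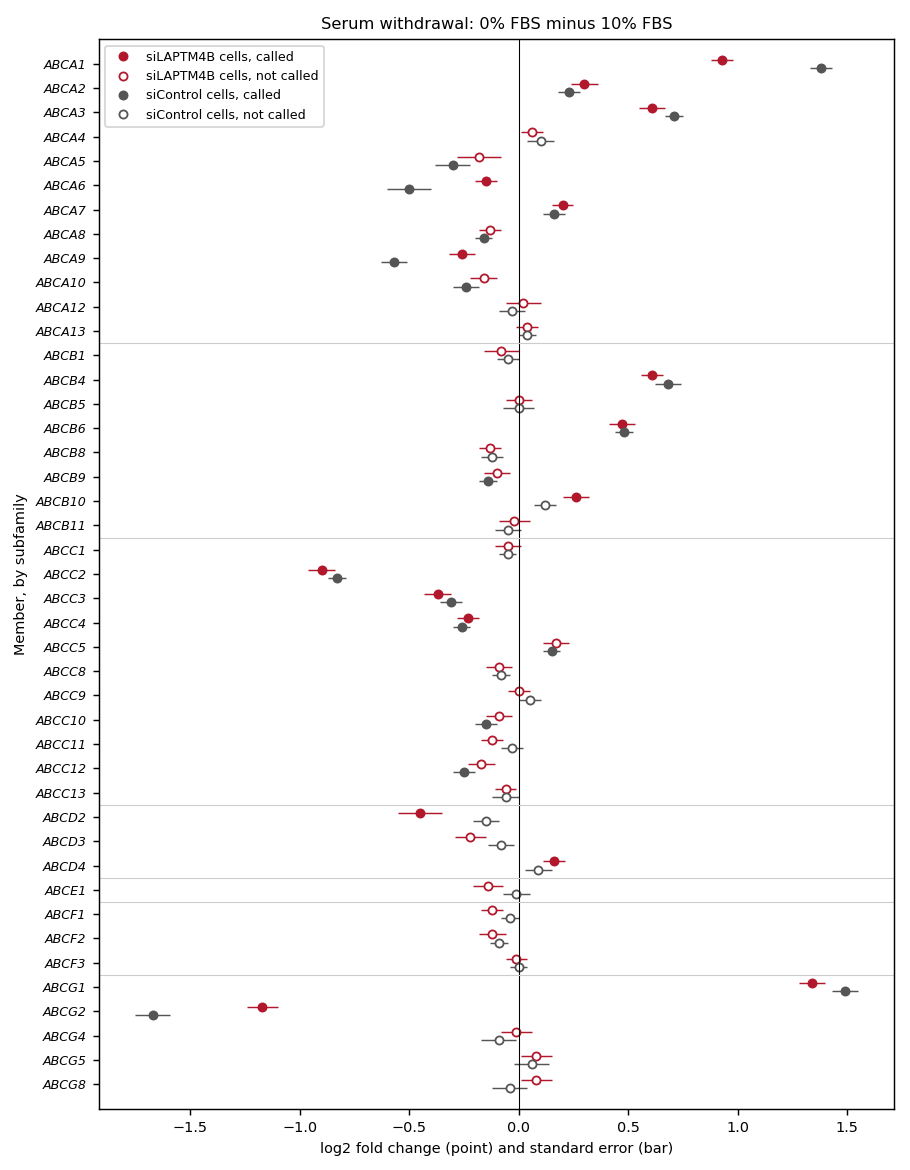
Log2 fold change of 0% FBS against 10% FBS for the 43 ABC members, by subfamily, in siLAPTM4B cells (red) and siControl cells (grey). Points are fitted log2 fold changes, bars are standard errors and filled points passed an adjusted p under 0.05. *ABCG1* at 1.34 and 1.49 and *ABCG2* at -1.17 and -1.67 mark the ends of the family in siLAPTM4B and siControl cells.

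Leaving out 1 array at a time kept 13 of the 16 calls in siLAPTM4B cells in every fit. *ABCA6* lost its call whichever array was left out (adjusted p up to 0.13), *ABCA7* without all but siLAPTM4B 10% FBS replicate 1 (up to 0.092) and *ABCD4* without all but siLAPTM4B 0% FBS replicate 1 (up to 0.15). The fold changes stayed at -0.17 to -0.14, 0.16 to 0.23 and 0.15 to 0.19. In siControl cells 13 of the 20 calls were kept in every fit, and *ABCA5*, *ABCA7*, *ABCA8*, *ABCA10*, *ABCB9*, *ABCC5* and *ABCC10* lost theirs in some.

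*ABCA1* was the 1 member whose difference in knockdown response between the media passed the test. It moves cholesterol and phospholipid to apolipoprotein A-I, the first step in making high-density lipoprotein. Without serum its signals were 10.03, 10.08 and 10.11 in siLAPTM4B cells, against 10.34, 10.32 and 10.40 in siControl cells. In 10% FBS they were 9.15, 9.19 and 9.10 in siLAPTM4B cells, against 8.91, 8.98 and 9.03 in siControl cells. All siLAPTM4B arrays thus lay below the siControl arrays without serum and above them in 10% FBS, and the groups did not overlap in either medium.

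The knockdown gave *ABCA1* a log2 fold change of -0.28 without serum (SE 0.05, 95% confidence interval -0.38 to -0.17, adjusted p = 0.02) and of 0.17 in 10% FBS (SE 0.05, 0.06 to 0.29, adjusted p = 0.1). The difference between these effects was -0.45 (SE 0.06, -0.59 to -0.32, adjusted p = 0.0096 in the limma fit of all 12 arrays). It was the 1 member called in this interaction, where 0.262% of all features were called (0.0719% higher and 0.190% lower). With an unadjusted p under 0.01 as the limit it was joined by *ABCG2* and *ABCA9*, so that 3 of 43 members passed, against 3.50% of all features. Arranged by serum withdrawal, the same 12 arrays give the same difference by arithmetic, which adds no further evidence. In that arrangement *ABCA1* rose by 0.93 in siLAPTM4B cells (SE 0.05, 1.9-fold, adjusted p = 2.1e-06) and by 1.38 in siControl cells (SE 0.05, 2.6-fold, adjusted p = 6.1e-07). The interaction was called in each of the 19 alternative fits, with adjusted p from 0.0012 to 0.041, while the separate call without serum was lost without siControl replicate 1, 2 or 3 or siLAPTM4B replicate 1 or 2 (adjusted p = 0.061 to 0.093).

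**Figure D3:**
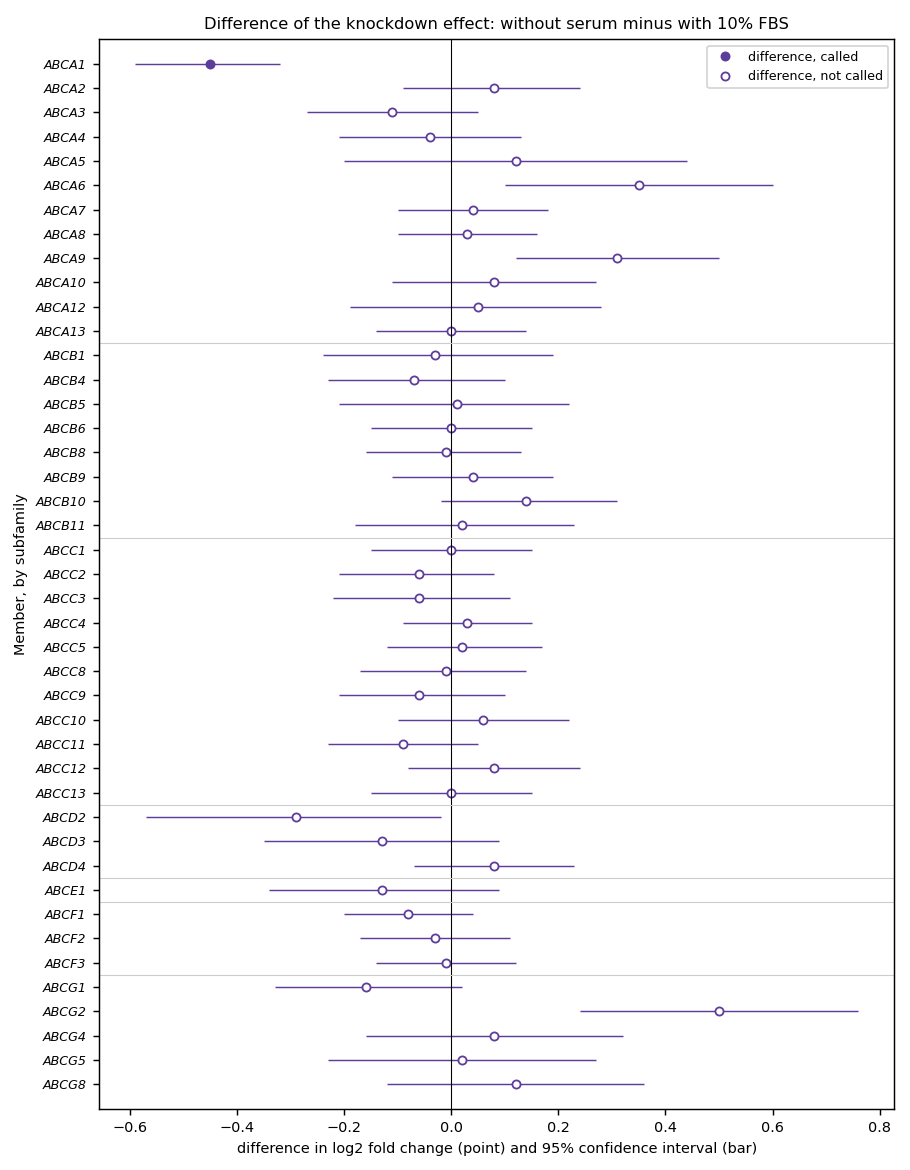
Difference of the knockdown effect between media, the log2 fold change without serum minus that with 10% FBS, for the 43 ABC members. Points are fitted differences and bars 95% confidence intervals. The filled point is *ABCA1* at -0.45, and the other 42 members were not called, among them *ABCG2* at 0.50 with a wide interval from 0.24 to 0.76.

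*ABCG1*, which passes cholesterol on to high-density lipoprotein particles, responded to serum with little difference by siRNA. Its signals were 9.44, 9.57 and 9.51 in siLAPTM4B and 9.55, 9.48 and 9.54 in siControl cells without serum. In 10% FBS they were 8.21, 8.19 and 8.11 in siLAPTM4B and 8.06, 7.91 and 8.12 in siControl cells. The arrays without serum all lay more than a full log2 unit above those in 10% FBS, and the siRNA groups overlapped within each medium. It rose on serum withdrawal by 1.34 in siLAPTM4B cells (SE 0.06, 2.52-fold, adjusted p = 4.1e-07) and by 1.49 in siControl cells (SE 0.06, 2.82-fold, adjusted p = 1.4e-06). Its knockdown values were -0.02 without serum and 0.14 in 10% FBS, and the difference between them, -0.16 (SE 0.08), was not called (adjusted p = 0.51).

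**Figure D4:**
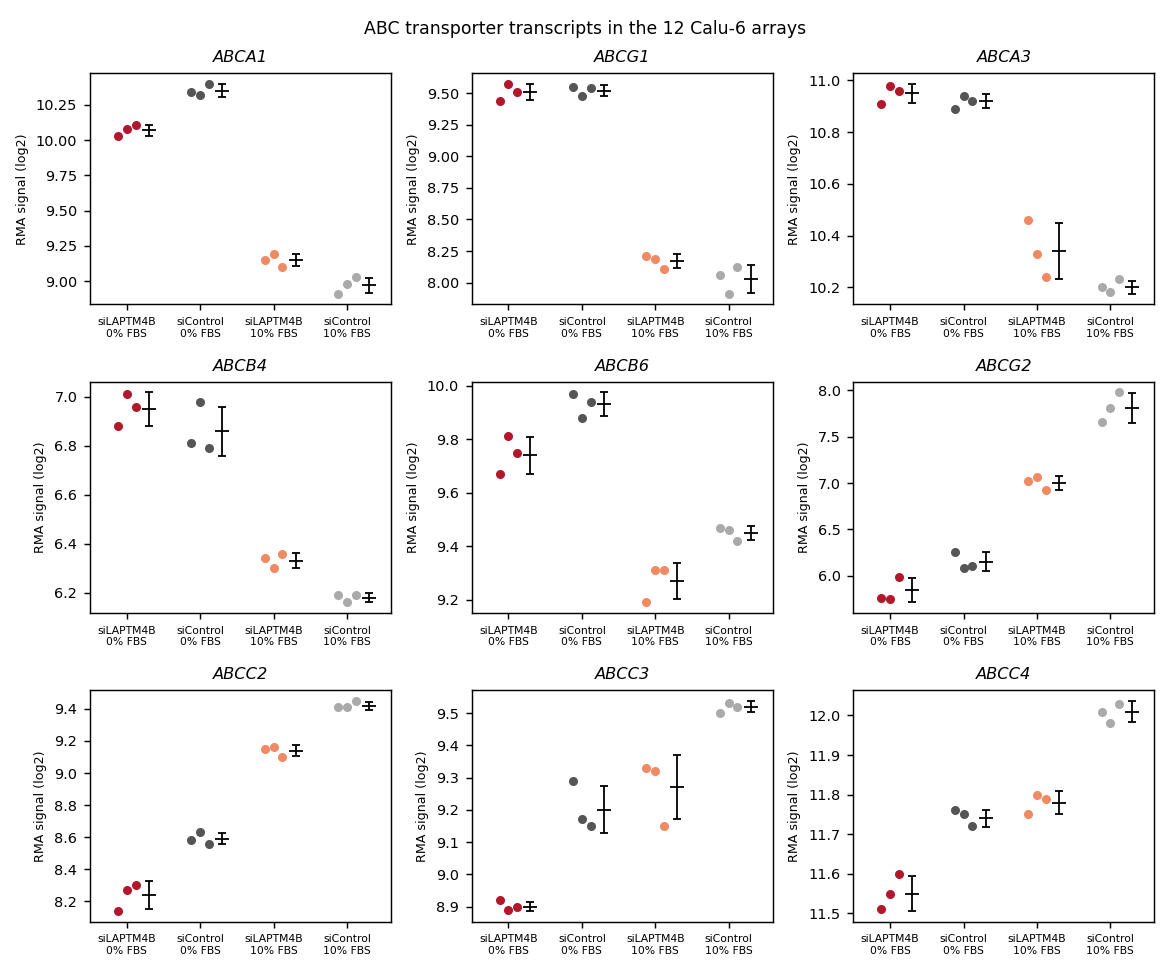
RMA signal (log2) of 9 ABC members in each of the 12 arrays. Coloured points are arrays, and the black tick and bar beside each group are the mean and SD of its 3 arrays. *ABCA1*, *ABCG1*, *ABCA3*, *ABCB4* and *ABCB6* lie higher in 0% FBS, and *ABCG2*, *ABCC2*, *ABCC3* and *ABCC4* lie lower there. The vertical axes differ between panels and do not start at 0.

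Genes that work with these exporters were described from a list of 19 sterol efflux partners, of which 16 were measured. On serum withdrawal 7 were called higher and 1 lower in siLAPTM4B cells, and 9 higher and 1 lower in siControl cells, where 20.7% and 26.0% of all features were called. *NPC1*, which exports cholesterol from lysosomes, rose by 0.73 in siLAPTM4B and 0.68 in siControl cells. *SREBF1* and *SREBF2*, which encode the sterol-responsive transcription factors of lipid synthesis, rose by 0.42 and 0.54 in siLAPTM4B and by 0.42 and 0.39 in siControl cells. *MYLIP*, an LXR target that degrades the LDL receptor, rose by 0.23 in siLAPTM4B and 0.39 in siControl cells, and *RXRA*, the partner of LXR, rose by 0.36 in siLAPTM4B and 0.24 in siControl cells. With knockdown the list had 0 calls without serum and 1 in 10% FBS, *RXRA*, which fell by 0.23 (SE 0.04, adjusted p = 0.026). Of all features 2.33% were called with knockdown without serum and 4.08% in 10% FBS. In the interaction the list had 0 calls.

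Of the other ABCA members, *ABCA3*, which loads phospholipid into the lamellar bodies of surfactant-making lung cells, rose on serum withdrawal in both transfections. Its signals were 10.91, 10.98 and 10.96 in siLAPTM4B cells without serum, against 10.46, 10.33 and 10.24 with 10% FBS, a rise of 0.61 (SE 0.06, adjusted p = 0.00012). In siControl cells they were 10.89, 10.94 and 10.92 without serum, against 10.20, 10.18 and 10.23 with 10% FBS, a rise of 0.71 (SE 0.04, adjusted p = 6.7e-06). Neither transfection had overlapping groups. *ABCA2*, an endolysosomal lipid transporter, rose by 0.30 in siLAPTM4B and 0.23 in siControl cells, and *ABCA7*, a phospholipid exporter close to *ABCA1* in sequence, rose by 0.20 in siLAPTM4B and 0.16 in siControl cells. *ABCA4*, *ABCA12* and *ABCA13* were called in none of the comparisons, with values between -0.15 and 0.10.

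The genes *ABCA8*, *ABCA9*, *ABCA6*, *ABCA10* and *ABCA5* lie next to each other in this order on chromosome 17, between *FAM20A* and *MAP2K6*, and form a branch of the subfamily whose substrates are less settled. All 5 had signals below the median of all features, and *ABCA5* alone had a mean above the lower quartile. All 5 fell on serum withdrawal in siControl cells, by 0.16 (*ABCA8*), 0.57 (*ABCA9*), 0.50 (*ABCA6*), 0.24 (*ABCA10*) and 0.30 (*ABCA5*) on the log2 scale. In siLAPTM4B cells *ABCA9* fell by 0.26 and *ABCA6* by 0.15, and the values of *ABCA8*, *ABCA10* and *ABCA5* were -0.13, -0.16 and -0.18 without a call. Sharing of probe sequence between these related genes was not analysed here, so whether the 5 features report them separately was not tested. With single arrays left out, the fold changes in siControl cells stayed at -0.16 to -0.15 for *ABCA8*, -0.28 to -0.20 for *ABCA10* and -0.35 to -0.22 for *ABCA5*, while some calls were lost. *ABCA8* lost its call without siControl 0% FBS replicate 3 or 10% FBS replicate 2 (adjusted p = 0.057 and 0.066), *ABCA10* without 0% FBS replicate 2 or 10% FBS replicate 3 (0.059 and 0.053) and *ABCA5* without 0% FBS replicate 1 or 3 or 10% FBS replicate 3 (0.05 to 0.086).

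*ABCA6* and *ABCA9* were lower with knockdown in 10% FBS. *ABCA6* had signals of 5.31, 5.35 and 5.29 in siLAPTM4B cells, against 5.69, 5.72 and 6.09 in siControl cells, and fell by 0.52 (SE 0.10, adjusted p = 0.024). One siControl array, replicate 3, stood above the other 2, and the call was lost without siLAPTM4B replicate 1, 2 or 3 (adjusted p = 0.065 to 0.1). *ABCA9* had signals of 5.88, 5.90 and 5.86 in siLAPTM4B cells, against 6.20, 6.24 and 6.35 in siControl cells, and fell by 0.39 (SE 0.05, adjusted p = 0.0066). Its groups were tight and its call was kept whichever of the 6 arrays was left out. Without serum the limma values were -0.17 for *ABCA6* and -0.08 for *ABCA9*, neither called. The differences between the media, 0.35 (SE 0.12, adjusted p = 0.29) and 0.31 (SE 0.09, adjusted p = 0.19), were not called either. The other 3 genes of the row had knockdown values from -0.16 to -0.06 without serum and from -0.29 to -0.09 in 10% FBS.

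**Figure D5:**
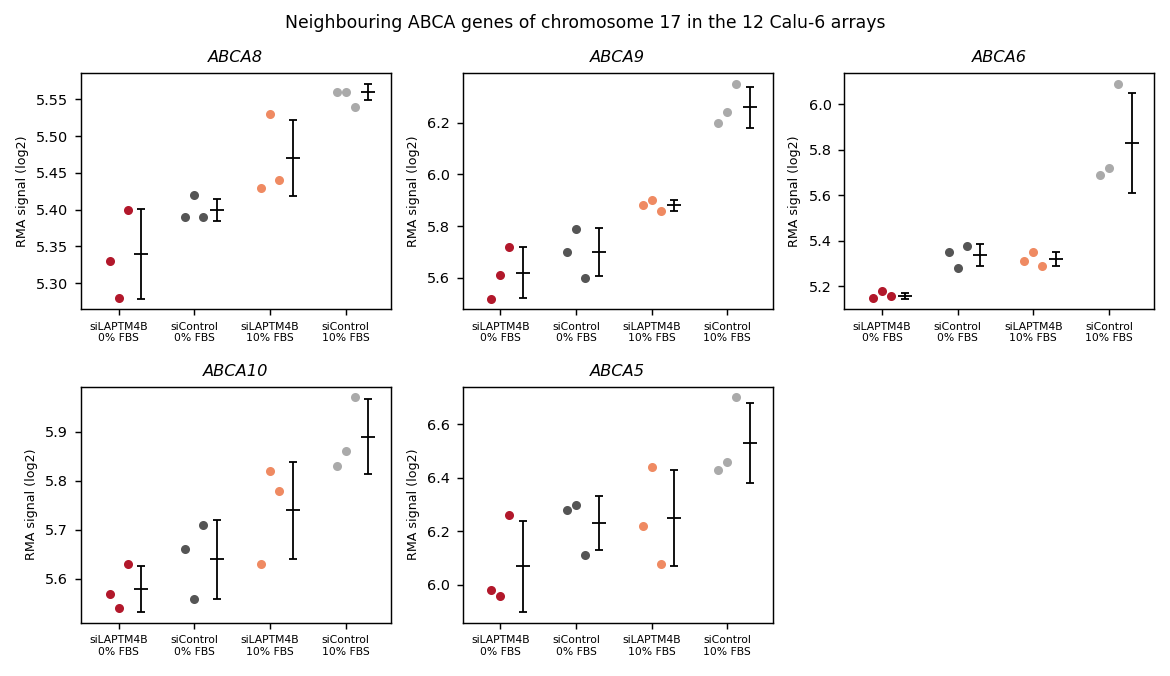
RMA signal (log2) in each of the 12 arrays for 5 neighbouring ABCA genes of chromosome 17, in their order along it. Coloured points are arrays, and the black tick and bar are the mean and SD of 3 arrays. In each panel the siControl arrays in 10% FBS include the highest signals, up to 6.35 for *ABCA9* and 6.70 for *ABCA5*. The vertical axes differ between panels and do not start at 0.

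*ABCG2* had the largest knockdown value of the family. It exports drugs, urate and porphyrins, and is named breast cancer resistance protein. In 10% FBS its signals were 7.02, 7.06 and 6.92 in siLAPTM4B cells, against 7.66, 7.81 and 7.98 in siControl cells. The lowest siControl array lay well above the highest siLAPTM4B array. It fell by 0.81 on the log2 scale (SE 0.08, 95% confidence interval -0.99 to -0.63, 0.57-fold, adjusted p = 0.0018).

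Without serum *ABCG2* signals were 5.76, 5.75 and 5.99 in siLAPTM4B cells, against 6.26, 6.08 and 6.10 in siControl cells. These groups did not overlap, but the difference of -0.31 (SE 0.08) was not called (adjusted p = 0.09), and the difference between the media, 0.50 (SE 0.12), was not called either (adjusted p = 0.13). *ABCG2* fell on serum withdrawal by 1.17 in siLAPTM4B cells (SE 0.07, 0.445-fold, adjusted p = 4.9e-06) and fell by 1.67 in siControl cells (SE 0.08, 0.315-fold, adjusted p = 4.3e-06). Its signals without serum lay below the lower quartile of the arrays, which was 6.14 to 6.19, in every array but siControl replicate 1. The sterol transporters *ABCG4*, *ABCG5* and *ABCG8* of the same subfamily had values between -0.09 and 0.12 in all comparisons and no call.

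In subfamily ABCC, the anion exporter *ABCC2*, which secretes conjugated bilirubin and drug conjugates at apical membranes, followed both factors. Without serum its signals were 8.14, 8.27 and 8.30 in siLAPTM4B cells, against 8.58, 8.63 and 8.56 in siControl cells. In 10% FBS they were 9.15, 9.16 and 9.10 in siLAPTM4B cells, against 9.41, 9.41 and 9.45 in siControl cells. None of the 4 groups overlapped another, with siLAPTM4B in 0% FBS at the bottom and siControl in 10% FBS at the top. The knockdown values were -0.35 without serum (SE 0.05, 0.783-fold, adjusted p = 0.015) and -0.29 in 10% FBS (SE 0.04, 0.819-fold, adjusted p = 0.011).

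The difference of these *ABCC2* values between media was -0.06 (SE 0.07, adjusted p = 0.77). On serum withdrawal *ABCC2* fell by 0.90 in siLAPTM4B cells (SE 0.06, 0.537-fold) and by 0.83 in siControl cells (SE 0.04, 0.561-fold), with adjusted p of 5e-06 and 3.6e-06. Its knockdown call without serum was lost without siControl replicate 1, 2 or 3 or siLAPTM4B replicate 2 (adjusted p = 0.051 to 0.068), and in 10% FBS without siControl replicate 2 or 3 or siLAPTM4B replicate 3 (0.055 to 0.058).

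*ABCC3* and *ABCC4* had the same order of groups. *ABCC3*, a basolateral exporter of glucuronides and bile salts, had signals of 8.92, 8.89 and 8.90 in siLAPTM4B cells without serum, against 9.29, 9.17 and 9.15 in siControl cells, and fell by 0.30 (SE 0.05, adjusted p = 0.019). In 10% FBS they were 9.33, 9.32 and 9.15 in siLAPTM4B cells, against 9.50, 9.53 and 9.52 in siControl cells, a difference of -0.25 that was not called (SE 0.06, adjusted p = 0.053). The call without serum was lost when any 1 of the 6 arrays was left out (adjusted p = 0.051 to 0.093). *ABCC3* fell on serum withdrawal by 0.37 in siLAPTM4B and 0.31 in siControl cells.

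*ABCC4*, which exports cyclic nucleotides and prostaglandins, had signals of 11.75, 11.80 and 11.79 in siLAPTM4B cells in 10% FBS, against 12.01, 11.98 and 12.03 in siControl cells, and fell by 0.23 (SE 0.04, adjusted p = 0.03). Its call was lost whichever of the 6 arrays was left out (adjusted p = 0.061 to 0.11). Without serum the signals were 11.51, 11.55 and 11.60 in siLAPTM4B cells, against 11.76, 11.75 and 11.72 in siControl cells (-0.19, adjusted p = 0.069). The arrays did not overlap in either medium. On serum withdrawal *ABCC4* fell by 0.23 in siLAPTM4B and 0.26 in siControl cells.

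The other 8 ABCC members had no call with knockdown, and *ABCC5*, *ABCC10* and *ABCC12* were called on serum withdrawal in siControl cells alone. *ABCC1*, the first multidrug resistance-associated protein, had values of -0.05 or closer to 0 in every comparison and signals from 10.78 to 10.95. *ABCC5*, a nucleotide analogue exporter, rose by 0.15 on serum withdrawal in siControl cells and had an uncalled value of 0.17 in siLAPTM4B cells. *ABCC10* and *ABCC12* fell by 0.15 and 0.25 in siControl cells, with uncalled values of -0.09 and -0.17 in siLAPTM4B cells. *ABCC5* lost its call without siControl 0% FBS replicate 1 or 2 or 10% FBS replicate 1, 2 or 3 (adjusted p up to 0.092), and *ABCC10* without every array but siControl 10% FBS replicate 1 (up to 0.16). *ABCC12*, whose mean signal lay below the lower quartile of all features, kept its call whichever array was left out. *ABCC8* and *ABCC9*, regulatory subunits of ATP-sensitive potassium channels, had no call, and neither did *ABCC11* or *ABCC13*. The 2 pore subunits listed for those channels had no call either.

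Among regulators and membrane anchors of the drug exporters, 13 of 20 listed genes were measured. They had 0 calls with knockdown in either medium and, on serum withdrawal, 1 higher and 1 lower call in each transfection, a share below the 20.7% of all features in siLAPTM4B and 26.0% in siControl cells. *MSN*, the membrane linker moesin, rose by 0.20 in siLAPTM4B and 0.24 in siControl cells. *ARNT*, the partner of the aryl hydrocarbon receptor, fell by 0.31 in siLAPTM4B and 0.27 in siControl cells.

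In subfamily ABCB, *ABCB4* and *ABCB6* responded to serum in both transfections. *ABCB4*, which flips phosphatidylcholine into bile in the liver, had signals of 6.88, 7.01 and 6.96 in siLAPTM4B cells without serum, against 6.34, 6.30 and 6.36 with 10% FBS, and rose by 0.61 (SE 0.05, adjusted p = 3.9e-05). In siControl cells they were 6.81, 6.98 and 6.79 without serum, against 6.19, 6.16 and 6.19 with 10% FBS, a rise of 0.68 (SE 0.06, adjusted p = 6.3e-05). All of these lay below the median feature, and the media did not overlap.

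*ABCB6*, a porphyrin transporter linked to mitochondria and lysosomes, had signals of 9.67, 9.81 and 9.75 in siLAPTM4B cells without serum, against 9.19, 9.31 and 9.31 with 10% FBS, a rise of 0.47 (SE 0.06, adjusted p = 0.00036). In siControl cells they were 9.97, 9.88 and 9.94 without serum, against 9.47, 9.46 and 9.42 with 10% FBS, a rise of 0.48 (SE 0.04, adjusted p = 9.4e-05). Its siLAPTM4B arrays lay below the siControl arrays in both media, by 0.19 and 0.18, and neither difference was called (adjusted p = 0.12 and 0.091).

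*ABCB10*, a mitochondrial inner membrane protein needed for heme synthesis, rose on serum withdrawal by 0.26 in siLAPTM4B cells (SE 0.06, adjusted p = 0.011) and had an uncalled value of 0.12 in siControl cells. The difference between the transfections was 0.14 (SE 0.08, adjusted p = 0.54). *ABCB9*, the lysosomal peptide transporter, fell by 0.14 in siControl cells, a call lost without each array but siControl 0% FBS replicate 2 (adjusted p up to 0.11), and had a value of -0.10 in siLAPTM4B cells. *ABCB1*, the multidrug exporter P-glycoprotein, had signals of 5.78 to 6.11 in all arrays and values between -0.08 and -0.03. The melanocyte-associated *ABCB5* and the bile salt exporter *ABCB11* had no call. *ABCB8*, another mitochondrial member, had 3 features that differed in sign in all 5 comparisons, with no call on any of them.

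Of the 17 listed mitochondrial heme and iron-sulfur genes 16 were measured. With knockdown they had 0 calls in either medium, and on serum withdrawal 3 were lower in siLAPTM4B cells, with 2 lower and 1 higher in siControl cells, again below those shares of all features. *NFS1*, the cysteine desulfurase that supplies sulfur for iron-sulfur clusters, fell by 0.48 in siLAPTM4B and 0.34 in siControl cells. *FECH*, the enzyme that inserts iron into protoporphyrin to form heme, had a value of -0.19 in siLAPTM4B cells, not called (adjusted p = 0.051). It fell by 0.20 in siControl cells. The heme exporter *FLVCR1* had an uncalled value of 0.15 in siLAPTM4B cells (adjusted p = 0.095) and rose by 0.19 in siControl cells.

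The peroxisomal fatty acid importer *ABCD2* fell on serum withdrawal in siLAPTM4B cells. Its signals there were 8.42, 8.63 and 8.77 without serum, against 8.94, 9.22 and 9.01 with 10% FBS, a fall of 0.45 (SE 0.10, adjusted p = 0.0099). In siControl cells they were 8.83, 8.86 and 9.04 without serum, against 9.06, 9.07 and 9.06 with 10% FBS (-0.15, SE 0.06, adjusted p = 0.099). The difference between the transfections, -0.29 (SE 0.13), was not called (adjusted p = 0.42). *ABCD4*, which releases cobalamin from lysosomes, rose by 0.16 in siLAPTM4B cells and had an uncalled value of 0.09 in siControl cells. The second peroxisomal importer, *ABCD3*, had values of -0.22 and -0.08 in siLAPTM4B and siControl cells, and no ABCD member was called with knockdown.

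Among 10 measured of 13 listed peroxisomal and fatty acid genes, serum withdrawal gave 1 higher and 2 lower calls in siLAPTM4B cells and 1 higher and 1 lower in siControl cells, against 20.7% and 26.0% of all features, and knockdown gave 0 in both media. *SLC27A2*, an acyl-CoA synthetase for very long-chain fatty acids, rose by 0.65 in siLAPTM4B and 0.73 in siControl cells. *PEX3*, a peroxisome assembly factor, fell by 0.24 in siLAPTM4B and 0.20 in siControl cells.

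The soluble members had no call in any comparison. *ABCE1*, which splits ribosomes after termination, had knockdown values of 0.05 without serum and 0.18 in 10% FBS (adjusted p = 0.25). The translation factors *ABCF1*, *ABCF2* and *ABCF3* lay between -0.12 and 0.05 in all comparisons, and the 3 features of *ABCF1* gave the same values to 2 decimals. Of 14 listed ribosome recycling and translation genes 12 were measured, with 0 calls with knockdown, 1 lower on serum withdrawal in siLAPTM4B cells, and 1 lower and 2 higher in siControl cells, against 20.7% and 26.0% of all features. The lower call in each was *IMPACT*, a regulator of the *GCN2* kinase, at -0.42 and -0.32 in siLAPTM4B and siControl cells.

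Family members with other names were read separately. *TAP1*, a subunit of the transporter that carries peptides to MHC class I, rose on serum withdrawal by 0.20 in siLAPTM4B cells (adjusted p = 0.014) and by 0.22 in siControl cells (adjusted p = 0.028). *TAP2*, the other subunit, fell by 0.23 in siLAPTM4B cells (adjusted p = 0.0096) and had an uncalled value of -0.12 in siControl cells. *CFTR*, the chloride channel of the C subfamily, rose by 0.29 in siControl cells (adjusted p = 0.025) and had a value of 0.07 in siLAPTM4B cells. Its knockdown values were -0.31 without serum (adjusted p = 0.11) and -0.09 in 10% FBS. None of the 3 was called with knockdown in either medium. Of 13 listed peptide loading genes 9 were measured, and 1 was called with knockdown, the trimming peptidase *ERAP1*, which rose by 0.27 in 10% FBS (SE 0.05, adjusted p = 0.03). In that comparison 4.08% of all features were called. *ERAP1* was also the 1 gene of the list called on serum withdrawal, where it fell by 0.26 in siLAPTM4B cells and had an uncalled value of -0.02 in siControl cells. Of all features 20.7% were called on serum withdrawal in siLAPTM4B cells and 26.0% in siControl cells.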

How the data were processed

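Gene expression was profiled on 12 Affymetrix Human Gene 1.0 ST arrays of Calu-6 cells, 3 biological replicates in each of 4 groups. The authors deposited log2 values from RMA, which corrects the background of each array, equalises the distributions of the arrays and summarises the probes of a feature; these were used as given. Depth has no meaning for arrays, and 3 arrays a group limit the precision. The probe library and summary level are not given in the sources used here.

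Of 33252 features, 19460 carry 1 gene symbol, 1754 several and 12038 none; the first kind was tested. Groups were compared in fits of 6 arrays in limma 3.58.1 (R 4.3.3), and the interaction in a fit of 12, with Benjamini-Hochberg adjustment over all 19460 features and calls at an adjusted p under 0.05. The fits were tested on simulated data. The members and gene lists were chosen with earlier results of these data known, so no list was tested as a set.

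Named are all called members, uncalled members with an unadjusted p under 0.01, *ABCC2*, *ABCG2*, *TAP1*, *TAP2*, *CFTR* and up to 4 called genes per list and comparison; single values of other members are given to complete a subfamily. Arrays with the same replicate number deviated together between the siControl media (r = 0.366, 0.13 and 0.2), and the blocked fit called the same 20 members. Unlike-numbered arrays there reached r = 0.124, and whether the numbers pair the arrays was not tested. Alternatives were all features, 1 feature per gene, dim features left out, trended and robust variances, all arrays in the fit, a replicate block, median centring, the methods' t-test, the mean of a member's features, and each array left out. The methods' t-test is the Student's test their statistics name for cell experiments. Promoters came from RefSeq (GRCh38.p14).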

Additional observations from a re-analysis of the deposited data

Results flagged for a closer look

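*ABCA1* was set apart because its response to knockdown differed between the media by a test of the difference itself: the log2 fold change without serum minus that with 10% FBS was -0.45 (SE 0.06, adjusted p = 0.0096, limma, 12 arrays). All 3 siLAPTM4B arrays were below the 3 siControl arrays without serum and above them in 10% FBS. The target *LAPTM4B* itself was reduced less without serum (difference 0.33), and the part of this in the *ABCA1* value was not tested.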

How the results depend on the processing

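The alternatives covered 56 member results, those called or with an unadjusted p under 0.01, in 832 alternative values. None reversed, but few could: alternatives that change only the features tested or the variances leave a fold change as it is. The covered results between 2 groups had no overlapping groups, so leaving out 1 array could not reverse them either. Other values named, including those of partner genes, were not refitted. Of the 832 values 704 kept the side of the threshold, 111 lost a call and 17 gained one. For knockdown without serum, with 3 members called, the count was 0 with all features tested and 0 with the methods' t-test. It was 6 with dim features left out, 8 with trended and robust variances and 8 at an unadjusted p under 0.01. Over all features the main fit called 454 of 19460, the fit of all features 134 of 33252 and the t-test 27 of 19460. With dim features left out 808 of 11942 were called, and 1126 of 19460 with trended and robust variances. In the main fit 1291 had an unadjusted p under 0.01. For knockdown in 10% FBS, with 5 members called, the count was 3 with all features and 1 with the methods' t-test (*ABCC2*). It was 8 with all 12 arrays in the fit and 9 at an unadjusted p under 0.01. With dim features left out it was 5, *ABCA1* higher and *ABCB6*, *ABCC2*, *ABCC3* and *ABCC4* lower. *ABCG2*, *ABCA6* and *ABCA9* are dim and had no test there. Over all features the main fit called 793, the fit of all features 279, the t-test 177 and the fit of all 12 arrays 1370. With dim features left out 1207 of 11942 were called, and 1574 had an unadjusted p under 0.01 in the main fit. For serum withdrawal in siControl cells, with 20 members called, the count was 12 with dim features left out, since 8 of the called members are dim. There 5215 of 11942 features were called, against 5064 of 19460 in the main fit. For the interaction, with 1 member called, the count was 3 at an unadjusted p under 0.01, which 3.50% of all features passed. The median over members lay near 0 with knockdown and changed sign: it was -0.003 without serum and 0.002 without siControl replicate 1, and 0.010 in 10% FBS, -0.006 without siControl replicate 3 and -0.005 without siLAPTM4B replicate 3. The causes of the other shifts were not tested. Leaving out 1 array gave 0 to 3 members for knockdown without serum, 2 to 4 in 10% FBS, 13 to 16 for serum withdrawal in siLAPTM4B cells, 14 to 18 in siControl cells and 1 in each case for the interaction. Those fits called 118 to 290 features for knockdown without serum and 228 to 482 in 10% FBS. They called 2713 to 3432 features for serum withdrawal in siLAPTM4B cells, 3632 to 4478 in siControl cells and 19 to 51 for the interaction.

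Same-numbered arrays deviated together less clearly in the other comparisons of 2 groups. The groups siLAPTM4B 0% FBS and siControl 10% FBS meet only in the interaction. Between them same-numbered arrays correlated at 0.483, 0.177 and 0.345, and 6 of 6 arrays correlated best with their own number. A shared origin of same-numbered arrays was not tested. In the other comparisons of 2 groups, same-numbered arrays correlated at 0.387, 0.0694 and 0.184 without serum and at 0.368, 0.153 and -0.0795 in 10% FBS. Between the siLAPTM4B media the values were 0.316, 0.131 and -0.167. In these comparisons 4, 3 and 3 of 6 arrays correlated best with their own number. With the replicate block 4 members were called for knockdown without serum (*ABCD2* added), 5 in 10% FBS, 15 for serum withdrawal in siLAPTM4B cells (*ABCA6* and *ABCD4* lost, *ABCD3* added), 20 in siControl cells and 1 in the interaction. Over all features the block called 656 against 454 for knockdown without serum and 84 against 51 in the interaction. *ABCA6* in siLAPTM4B serum withdrawal lost its call in 11 of 14 alternatives.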
